A study of Homo sapiens with 12 samples.

Results

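The H3K9me1 regions of 9 gene-dense chromosome windows were described in HCT116 cells, an established human colorectal carcinoma line, after methionine depletion and before it. The windows were stretches of hg19 at bands 1p36 (2 to 28 Mb of chromosome 1), 7q22 (97 to 103 Mb of chromosome 7), 12q13 (48 to 51 Mb, here proximal, and 56 to 58 Mb, here distal, of chromosome 12), 16p13.3 (2 to 5 Mb of chromosome 16), 16q22 (66.7 to 70 Mb of chromosome 16), 17p13 (4 to 8.5 Mb of chromosome 17), 17q21 (40 to 44 Mb) and 17q25 (72 to 79 Mb). A region was a member if its midpoint lay in a window, whatever its strength. The 4 H3K9me1 lists held 2264195 regions, of which 71403 (3.15%) were members. By library the members numbered 9157 in restricted A, 18373 in restricted B, 20978 in control A and 22895 in control B. Together the windows span 58.8 Mb, which is 4.65% of the 1263 Mb of the 8 chromosomes that all 4 lists contain (chromosomes 1, 2, 6, 7, 10, 12, 16 and 17). The 3.15% is a share of regions on every listed sequence, so these 2 percentages cannot be set against each other. On the 8 chromosomes, 1224184 regions lay outside the windows. Gene content was not measured, because no hg19 gene annotation was used, so the description of the windows as gene-dense rests on what is known of these bands.

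The restricted libraries (A and B) came from cells kept for 24 hr in medium without methionine, a treatment that the labels of the series describe as depletion of methionine and SAM (S-adenosylmethionine). The control libraries (A and B) came from cells at 0 hr in complete medium. All cells were HCT116 at passage 19 with serum in both media, and there was no control at 24 hr, so the effect of depletion cannot be told apart from that of a day in culture. For H3K9me1 the labels give no treatment, and the time and the letter stand only in the sample titles. The medium of these libraries was thus taken from the time in the title. Nothing says that A and B were separate cultures, so every p-value measures only how far the libraries differ from each other, in part perhaps technically. Per the file headers the H3K9me1 libraries held 39452512 (restricted A), 35134998 (restricted B), 30952210 (control A) and 31683422 (control B) tags. The letters coincide with the sequencing lane, A on lane 2 and B on lane 3, so the ratios of restricted to control within A and within B are also within-lane ratios. In all 4 lists most regions were weak: 95.8% to 99.3% had a −log10 p below 2 under the authors' lenient setting. Of chromosomes 1 to 22 and X, 10 to 21 were listed per library.

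Histone H3 lysine 9 carries 1, 2 or 3 methyl groups. The methyl groups come from SAM, which cells make from methionine. Trimethylated lysine 9 (H3K9me3) marks compact, mostly silent chromatin, whereas the monomethylated form (H3K9me1) is known from transcribed and accessible chromatin as well as serving as the substrate on which H3K9me2 and H3K9me3 are built. Gene-dense bands stain lightly in chromosome preparations, replicate early and are rich in expressed genes. Of the bands examined, 1p36 holds PRDM16, a protein reported to monomethylate H3K9. The distal 12q13 window holds SHMT2, the mitochondrial serine hydroxymethyltransferase of one-carbon metabolism, and the proximal one KMT2D, a methyltransferase of H3 lysine 4. Band 7q22 has a cluster of membrane-bound mucin genes, 16p13.3 has CREBBP, a histone acetyltransferase, 16q22 has CTCF, which organises chromatin loops, 17p13 has POLR2A, the large subunit of RNA polymerase II, 17q21 has STAT3, a cytokine-activated transcription factor, and 17q25 has BIRC5, the mitotic protein survivin. The lists name no genes, so no value below belongs to a particular gene.

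By covered share, the windows were richer in H3K9me1 than the rest of the 8 chromosomes in all 4 libraries, but barely so in restricted B. The excess was smaller in restricted A and restricted B than in either control. H3K9me1 regions covered 6.79% of the window sequence in restricted A, 15.3% in restricted B, 19.1% in control A and 21.8% in control B. Outside the windows on the same chromosomes they covered 5.66% in restricted A, 14.8% in restricted B, 12.1% in control A and 14.8% in control B. Restricted B and control B thus covered the same share outside the windows to 3 digits, while inside the windows restricted B covered less. Restricted A covered less than any other library both inside and outside.

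To set libraries of different total coverage side by side, the covered share of a window was divided by the covered share of the 8 chromosomes in the same library, which is called relative density here: 1 is the chromosome-wide level of that library. Over all 9 windows it was 1.19 in restricted A and 1.03 in restricted B, against 1.54 in control A and 1.44 in control B. The restricted libraries averaged 1.11 ± 0.111 and the controls 1.49 ± 0.0689 (SD, n = 2 each), a difference of -0.381 with no overlap between the groups. An exact two-sided permutation test gave p = 0.33, the smallest value that 2 libraries against 2 allow, so no single density can pass 0.05 by this test. Within lanes, restricted over control was 0.772 for A and 0.715 for B.

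**Figure D1:**
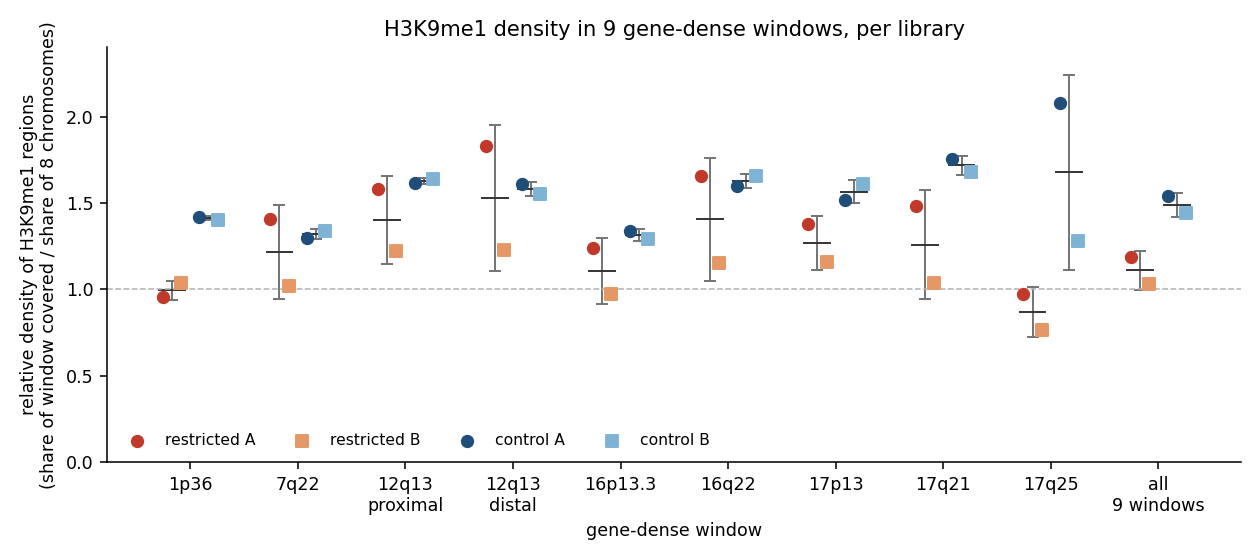
Relative density of H3K9me1 regions (y axis, no unit; share of the window covered over share of the 8 chromosomes covered) in each of the 9 windows and in all 9 together (x axis). Points are single libraries, horizontal bars are means of 2 libraries with their SD, and the dashed line at 1 is the chromosome-wide level; restricted B lies below both controls in all 9 windows, and restricted A in 6.

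In 6 of the 9 windows both restricted libraries lay below both controls, and in none did both lie above. Relative to the 8 chromosomes, the widest gaps between conditions were at 17q25, 17q21 and 1p36. At 17q25 the relative density was 0.973 in restricted A and 0.767 in restricted B, against 2.08 in control A and 1.28 in control B. Both restricted libraries were thus below their level over the 8 chromosomes there, and the controls above theirs. However, the 2 controls differed from each other by more than the restricted mean differed from the lower control. The mean was 0.870 ± 0.145 in restricted and 1.68 ± 0.564 in control libraries (SD, n = 2 each), and within lanes the ratio of restricted to control was 0.469 for A and 0.600 for B. Among regions with a −log10 p of at least 1.5 alone, the difference of means at 17q25 was -0.239, against -0.807 for all regions, and the groups overlapped. Relative density at that cutoff was 2.15 in restricted A and 1.40 in restricted B, against 2.58 in control A and 1.44 in control B. Among regions with a −log10 p of at least 2 alone, the difference of means was 0.261, but the groups overlapped. Relative density was then 2.86 in restricted A and 1.94 in restricted B, against 1.75 in control A and 2.53 in control B. These values rest on 12, 42, 108 and 37 regions in that order.

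At 17q21 relative density was 1.48 in restricted A and 1.04 in restricted B, against 1.76 in control A and 1.68 in control B. The 2 restricted libraries lay further apart than the controls did, and both were lower, by a ratio of 0.843 within A and 0.618 within B. At 1p36, the longest window at 26 Mb, it was 0.957 in restricted A and 1.03 in restricted B, against 1.42 in control A and 1.40 in control B. Here the replicates lay close together in both conditions, with means of 0.996 ± 0.0553 in restricted and 1.41 ± 0.0131 in control libraries (SD, n = 2 each).

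The other 3 windows with separated groups showed smaller gaps. At 17p13 relative density was 1.38 in restricted A and 1.16 in restricted B, against 1.52 in control A and 1.61 in control B. At 16p13.3 it was 1.24 in restricted A and 0.974 in restricted B, against 1.34 in control A and 1.29 in control B. In the proximal 12q13 window it was 1.58 in restricted A and 1.22 in restricted B, against 1.62 in control A and 1.64 in control B. In that last window restricted A nearly reached the controls, with a within-lane ratio of 0.978, so that most of the gap came from restricted B, with 0.746. Stricter thresholds moved 2 of these windows in no fixed direction. With a −log10 p of at least 1.5 the difference was -0.321 in the proximal 12q13 window and 0.0578 at 16p13.3, with overlapping groups in both. With at least 2 it was 0.4995 and -0.979, where restricted A had only 7 and 2 regions.

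In 3 windows the groups overlapped, in each case because restricted A was high. At 7q22 the relative density was 1.41 in restricted A and 1.02 in restricted B, against 1.30 in control A and 1.34 in control B. In the distal 12q13 window, the shortest, it was 1.83 in restricted A and 1.23 in restricted B, against 1.61 in control A and 1.55 in control B. At 16q22 it was 1.66 in restricted A and 1.15 in restricted B, against 1.60 in control A and 1.65 in control B. In these windows the 2 restricted libraries stood on different sides of the controls or, at 16q22, restricted A was level with the higher control.

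Restricted B was below restricted A in 8 of the 9 windows, 1p36 being the exception. The distal 12q13 window ranked 1 of 9 by relative density in both restricted libraries, against 4 in control A and 5 in control B. By the mean over the 4 libraries, the densest windows were the distal 12q13 window (1.55), 16q22 (1.52), the proximal 12q13 window (1.51) and 17q21 (1.49), values that lie closer together than the libraries within any of them. The lowest means were those of 1p36 (1.204), 16p13.3 (1.21), 7q22 (1.27) and 17q25 (1.27). The mean hides a split at 17q25, whose rank among the 9 was 8 in restricted A and 9 in restricted B, against 1 in control A and 9 in control B.

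Whole chromosomes differed as well, and part of a window's value is its chromosome's. Chromosome 17 had a relative density in restricted A of 1.34 and in restricted B of 0.985, against 1.44 in control A and 1.31 in control B. Chromosome 7 had 0.988 in restricted A and 0.979 in restricted B, against 0.873 in control A and 0.893 in control B, so it was higher in both restricted libraries. Dividing each window by its own chromosome in place of all 8 again left 6 windows lower in both restricted libraries and none higher, but not the same 6. By that measure 7q22 joined them, with 1.42 in restricted A and 1.04 in restricted B against 1.49 in control A and 1.498 in control B. Window 17p13 left them, with 1.03 in restricted A and 1.18 in restricted B against 1.05 in control A and 1.23 in control B. At 17q25 the density relative to chromosome 17 was lower in both, at 0.725 and 0.778 in restricted A and B against 1.44 and 0.980 in control A and B. At 17q21 it was 1.10 in restricted A and 1.05 in restricted B, against 1.22 in control A and 1.28 in control B. The difference at 17q21 was thus -0.173 by this measure, against -0.458 relative to the 8 chromosomes, and was narrower than those of the proximal 12q13 window (-0.277) and 7q22 (-0.258).

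Along the windows the difference was spread over most of the megabases. The 8 chromosomes were divided into bins of 1 Mb, and bins with a region in at least 2 libraries, 1227 in all, were tested together with limma on log2(relative density + 0.1), with Benjamini-Hochberg adjustment over all of them. A negative log2 difference means lower in restricted libraries, and on this scale changes of sparse bins are understated. Of the 58 window bins, 13 were lower in the restricted libraries at an adjusted p under 0.05 and 0 were higher, and 27 (46.6%) had an unadjusted p under 0.05, against 32.8% of all bins. Over all 1227 bins the background was 3.18% called lower and 10.0% called higher. Window bins had a median log2 difference of -0.41, against 0.08 over all bins.

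**Figure D2:**
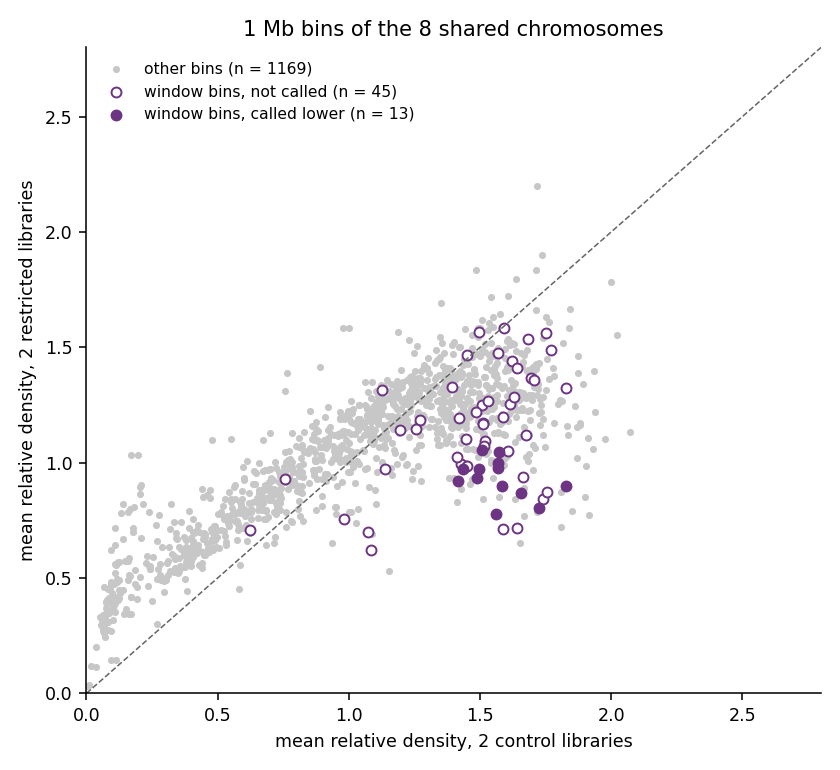
Mean relative density of each 1 Mb bin in the 2 restricted libraries (y axis) against the 2 control libraries (x axis), with the dashed line marking equal values. Window bins (purple; filled where called lower) lie mostly below the line at control densities of 1.3 to 1.8, and the other bins (grey) lie above the line at low and below it at high control densities.

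The calls depended on the settings and on single libraries. The count of window bins called lower was 0 without scaling for coverage, with quantile normalization and without the filter on bins. It was also 0 with a mean density of at least 0.5 required and with regions of −log10 p of at least 1.5 alone. With 2 Mb bins it was 2 of 28 (7.14%). Over all bins, −log10 p of at least 1.5 called 1 of 1227 lower, and 2 Mb bins called 9 of 619 (1.45%). The other settings named called 0 over all bins too. The log2 difference of the 13 bins was still negative in those of these fits that used 1 Mb bins, but as small as -0.0027 with −log10 p of at least 1.5, and without scaling 1001 of all 1227 bins were negative. The count was 41 without restricted A, 23 without restricted B, 3 without control A and 13 without control B, each fit assuming that the lone library of a condition varies like the others. Over all bins the same fits called 245, 209, 21 and 34 of 1227 lower, against 39 with all 4 libraries.

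Of the 13 called bins, 9 lay in 1p36, 2 in 17q25, 1 in 17q21 and 1 in 7q22. The 10 with the smallest adjusted p were chr17:43000001-44000000, chr17:75000001-76000000 and 8 bins of 1p36, starting at 11000001, 15000001, 16000001, 17000001, 19000001, 22000001, 23000001 and 25000001. At chr17:43000001-44000000, in 17q21, relative density was 0.948 in restricted A and 0.852 in restricted B, against 2.07 in control A and 1.59 in control B (log2 difference -0.94, SE 0.16, limma adjusted p = 0.0206). This bin had the lowest mean over the 4 libraries in 17q21. It was the sparsest of the 4 bins in restricted A, restricted B and control B, but the densest in control A. In control B it lay close to the next bin, with 1.59 against 1.61. The bin of 17q21 with the highest mean, chr17:41000001-42000000, had 1.67 in restricted A and 1.05 in restricted B, against 1.60 in control A and 1.81 in control B, so its groups overlapped.

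In 1p36, chr1:17000001-18000000 had a relative density in restricted A of 0.714 and in restricted B of 0.844, against 1.74 in control A and 1.38 in control B (log2 difference -0.91, SE 0.15, limma adjusted p = 0.0206). The bin chr1:22000001-23000000 had 0.977 in each restricted library, against 1.56 in control A and 1.57 in control B (log2 difference -0.63, SE 0.12, limma adjusted p = 0.0213). The replicates nearly coincided in both conditions. The other 6 of the 10 that lay in 1p36 had log2 differences of -0.51 to -0.78. In the same window chr1:18000001-19000000, the bin with the lowest value of any window bin in restricted A, was not called: it had 0.278 in restricted A and 1.16 in restricted B, against 1.65 in control A and 1.64 in control B (log2 difference -1.34, SE 0.68, limma adjusted p = 0.269). That bin is mentioned for its spread and was chosen after its values were seen.

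At 17q25 all 7 bins had a negative log2 difference, from -0.62 to -1.01, and in 6 of them the groups did not overlap. The called bin chr17:75000001-76000000 had a relative density in restricted A of 0.882 and in restricted B of 0.857, against 1.94 in control A and 1.37 in control B (log2 difference -0.84, SE 0.16, limma adjusted p = 0.0213). The bin chr17:77000001-78000000, with the widest difference of the 7, had 0.633 in restricted A and 0.790 in restricted B, against 2.02 in control A and 1.15 in control B, and missed the threshold (log2 difference -1.01, SE 0.27, limma adjusted p = 0.0694). In control A the 7 bins lay between 1.94 and 2.21, above every bin of control B, whose values were 1.14 to 1.37.

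**Figure D3:**
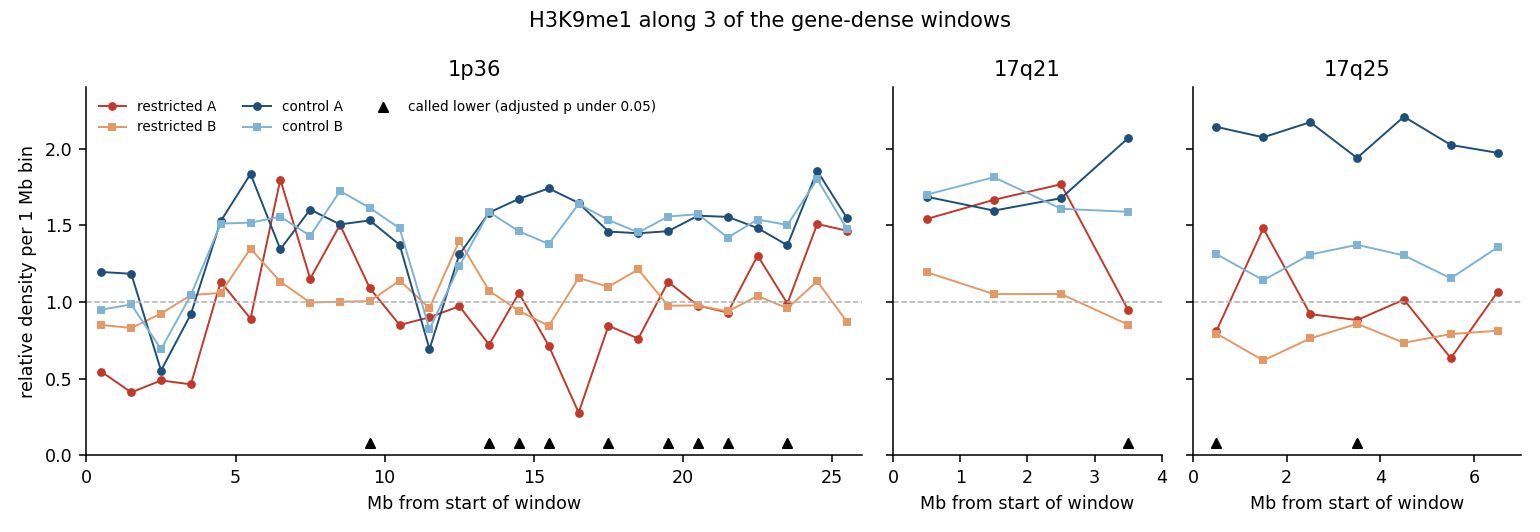
Relative density per 1 Mb bin (y axis) along 1p36, 17q21 and 17q25 (x axis, Mb from the start of the window) in the 4 libraries, with triangles under bins called lower in restricted libraries by limma. The controls run nearly together in 1p36 and stand apart in 17q25, where control A lies near 2.

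Of the 45 window bins without a call, 41 had a negative log2 difference, and in 24 both restricted libraries lay below both controls. With the called bins included, both restricted libraries lay below both controls in 37 of 58 window bins, where the background over all bins was 23.6%, and above both in 1 of 58, where it was 41.2%. The log2 difference was negative in 54 of 58 window bins and in 41.9% of all bins. The exception with both restricted libraries above was chr1:13000001-14000000, with a relative density in restricted A of 0.900 and in restricted B of 0.960, against 0.693 in control A and 0.823 in control B (log2 difference 0.27, SE 0.14, limma adjusted p = 0.207). It is also among the few window bins where the controls were below their chromosome-wide level: of the 58 bins, 35 exceeded 1 in restricted A and 33 in restricted B, against 55 in control A and 54 in control B.

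Rich bins outside the windows were also lower in the restricted libraries. Of bins with a mean control density of at least 1.5, all 35 in the windows and 210 of 222 (94.6%) outside them had a negative log2 difference, with medians of -0.45 and -0.33. Their median density in restricted libraries was 1.12 in the windows and 1.29 outside, and in control libraries 1.61 and 1.63. Between control densities of 1 and 1.5, 18 of 20 window bins and 227 of 420 other bins (54.0%) were negative, with medians of -0.33 and -0.01. Below 1, 1 of 3 window bins and 23 of 527 other bins (4.36%) were negative. These ranges were set after the data were seen and are cut on the control values themselves, so they are a description without a test.

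Within each library's own ranking of the 1227 bins, the window bins stood lower in the restricted libraries. The median percentile of the 58 bins was 59.7 in restricted A and 42.1 in restricted B, against 82.1 in control A and 78.9 in control B. In restricted B the median window bin was thus in the lower part of all bins. The median relative density in restricted B was 1.04 over window bins, against 1.11 over bins outside the windows. In restricted A it was 1.13 against 1.02. The densest 10% of bins of each library included 12 window bins in restricted A, 1 in restricted B, 19 in control A and 11 in control B, and 7 of those of control A were the 7 bins of 17q25.

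The shape of the profile across window bins was shared by the controls more than by the restricted libraries. Over the 58 bins, Pearson's r of log2 relative density was 0.27 between the restricted libraries and 0.61 between the controls; over the 26 bins of 1p36 alone it was 0.12 and 0.89. Across conditions it ranged from -0.17 to 0.53 over the 58 bins. With control B it was 0.53 for restricted A and 0.42 for restricted B, above that of the restricted pair. Over the 26 bins of 1p36 these values were 0.52 and 0.36. Outside the windows the same coefficients were 0.78 for the restricted pair, 0.98 for the control pair and 0.78 to 0.91 across conditions. These are descriptions across bins, which are neighbours on the same chromosomes and not independent. The SD of log2 density across the 58 bins was 0.53 in restricted A, 0.22 in restricted B, 0.32 in control A and 0.25 in control B.

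At the borders of the windows, H3K9me1 was level in restricted B and was denser towards the inside in the controls, where most of the rise lay in the last step outside. In steps of 0.5 Mb over all 18 borders, relative density just outside was 1.30 in restricted A and 1.06 in restricted B, against 1.43 in control A and 1.31 in control B. Just inside it was 1.28 in restricted A and 1.04 in restricted B, against 1.59 in control A and 1.43 in control B. From 0.5 to 1 Mb outside it was 1.18 in restricted A and 1.03 in restricted B, against 1.14 in control A and 1.12 in control B. From 1.5 to 2 Mb outside it was 1.12 in restricted A and 0.950 in restricted B, against 1.19 in control A and 1.15 in control B. Taken over the 18 borders, the gap between conditions was thus present in the first step inside and narrower outside. Restricted A reached 1.57 at 1 to 1.5 Mb inside, level with the controls at 1.56 and 1.54.

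**Figure D4:**
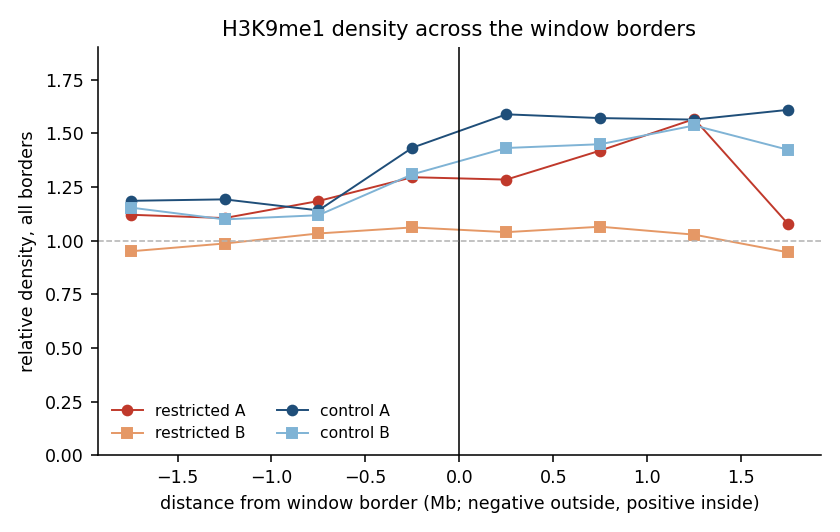
Relative density of H3K9me1 (y axis) in steps of 0.5 Mb by distance from the window borders (x axis, Mb; negative outside, positive inside), over 18 borders, of which 16 and 10 reach the last steps inside. Restricted B stays between 0.945 and 1.06 at every step, and the control lines climb mostly in the step just outside the border.

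Window regions were fewer in the restricted libraries, while their fold enrichment was like that of regions outside. Per Mb of window there were 155.7 regions in restricted A and 312.5 in restricted B, against 356.8 in control A and 389.4 in control B. Divided by the number per Mb outside the windows, this was 1.06 in restricted A and 1.001 in restricted B, against 1.39 in control A and 1.30 in control B. By this ratio restricted libraries listed about as many regions per Mb inside as outside, with a mean of 1.03 ± 0.0395 against 1.34 ± 0.0614 in controls (SD, n = 2 each; exact two-sided permutation p = 0.33).

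Regions inside the windows were slightly wider than outside in all 4 libraries. The median width was 354 bp in restricted A and 388 bp in restricted B, against 412 bp in control A and 426 bp in control B. Mean width inside over outside was 1.13 in restricted A and 1.03 in restricted B, against 1.14 in control A and 1.13 in control B, so the groups overlapped. The authors' fold enrichment, the read pileup of a region over its local background, had a median of 1.85 in restricted A, 1.86 in restricted B, 1.96 in control A and 1.84 in control B. Inside over outside, the median fold was 0.998 and 1.01 in restricted A and B and 0.991 and 1.01 in control A and B.

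Regions that clear a stricter cutoff were few. A −log10 p of at least 2 was reached in the windows by 74 regions in restricted A (0.808% of its members, 95% Wilson interval 0.644% to 1.01%), 218 in restricted B (1.19%, 1.04% to 1.35%), 1052 in control A (5.01%, 4.73% to 5.32%) and 258 in control B (1.13%, 0.998% to 1.27%). Control A stood apart from the other 3 libraries, outside the windows too. The intervals cover counting error only. The most significant window region of restricted A lay at chr1:9471002-9471374, with a −log10 p of 4.92 and a fold of 3.46, and that of restricted B at chr1:21788447-21788998, with 3.66 and 3.07. In control A it was chr1:27812352-27812458, with 4.11 and 3.53, and in control B chr16:3175822-3175931, with 3.18 and 3.16. These are the authors' values for regions of 107 to 552 bp.

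The background against which regions were called was itself higher in the windows. The local background implied by the deposited pileup and fold had a window median that was 1.01 in restricted A and 1.38 in restricted B, against 1.58 in control A and 1.27 in control B. Outside the windows it was 0.958 in restricted A and 1.01 in restricted B, against 1.04 in control A and 0.984 in control B. At 17q25 it was the highest of the 9 windows in every library, with 1.84 in restricted A, 2.17 in restricted B, 2.37 in control A and 1.98 in control B. The part of this background in the density differences was not tested.

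Individual regions recurred in few libraries. Merging overlapping window regions of the 4 lists gave 38746 loci, of which 2091 (5.40%) were present in all 4, against 4.60% outside the windows. Present in both restricted libraries and neither control were 674 loci (1.74%, against 2.65% outside), and present in both controls and neither restricted library were 3578 (9.23%, against 5.69% outside). At 17q25 these shares were 1.03% restricted-only and 12.96% control-only. The list of restricted A is the shortest in the windows, which by itself lowers the restricted-only number. With regions of −log10 p of at least 1.5 alone, 66 loci (0.471%, against 0.505% outside) were restricted-only and 850 (6.06%, against 4.20% outside) control-only.

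By length, overlap within the windows was low for every pair of libraries. The base-pair Jaccard index, the shared length over the combined length, was 8.13% for the restricted pair, 16.8% for the control pair and 6.96% to 13.5% across conditions. The index depends on the lengths of the lists, and restricted A covers the least. Divided by the overlap that the product of the 2 covered shares gives, the shared length was 1.60 for the restricted pair, 1.41 for the control pair and 1.30 to 1.35 across conditions. Outside the windows these ratios were 1.76 for the restricted pair, 1.88 for the control pair and 1.57 to 1.66 across conditions. Every pair thus had a lower ratio inside the windows, and the restricted pair exceeded the control pair only there.

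The widest loci found in all 4 libraries were all covered over a shorter length in restricted A than in either control. Merged width follows the libraries with the widest regions. The widest window region was 5382 bp in control A and 5313 bp in control B, against 2975 bp in restricted A and 4152 bp in restricted B. The choice of loci by width thus favoured the controls, so their lengths add no support to the lower density. The widest, chr17:77220226-77227346 in 17q25, was covered over 803 bp in restricted A and 1921 bp in restricted B, against 5267 bp in each control. At chr1:19936232-19942681 the covered length was 1548 bp in restricted A and 3489 bp in restricted B, against 3713 bp in control A and 2222 bp in control B. The next were chr1:5905073-5911406, chr12:48376264-48382388 and chr17:75789625-75795708, in which restricted A had 784, 462 and 141 bp. Restricted B had 3353, 3509 and 2199 bp, against 4747, 5280 and 2949 bp in control A and 3019, 2431 and 5362 bp in control B, so in the first 2 of these it covered more than control B. All 5 had authors' fold values of 1.79 to 2.19.

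The widest restricted-only locus was chr16:68574593-68577007 in 16q22, covered over 1806 bp in restricted A and 1325 bp in restricted B and in neither control. Next to it in width was chr16:68196495-68198764 in the same window, with 1529 bp in restricted A and 1243 bp in restricted B. The other 3 of the 5 widest were chr17:6863765-6865879 in 17p13 and chr17:42603493-42605568 and chr17:43605580-43607632 in 17q21. The last of these lies within the 17q21 bin that was called lower. The widest control-only loci were longer, but the control lists also held more and wider window regions. The widest of these loci, chr17:43784827-43789050 in the same bin, had 2276 bp in control A and 3807 bp in control B. Neither restricted library listed a region there. The others were chr1:5739933-5743862, chr17:74242143-74246052, chr12:50215817-50219465 and chr17:5664286-5667924.

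H3K9me3 was sparse in the windows in both conditions. It was called by the authors with a stricter cutoff, so its numbers cannot be set against those of H3K9me1. The windows held 55 H3K9me3 peaks in restricted A, 19 in restricted B, 33 in control A and 17 in control B, covering 48.2, 18.7, 32.3 and 18.4 kb in that order. Relative to the same 8 chromosomes the H3K9me3 density was 1.31 in restricted A and 1.38 in restricted B, against 1.07 in control A and 0.943 in control B (means 1.34 ± 0.0476 and 1.01 ± 0.0922, SD, n = 2 each; exact two-sided permutation p = 0.33). The groups did not overlap, in the direction opposite to H3K9me1. With only 17 to 55 peaks per library, few peaks decide these values: at 1p36, which makes up the largest part of the windows, the groups overlapped, with 0.710 in restricted A and 0.429 in restricted B, against 0.639 in control A and 0.493 in control B.

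The H3K9me3 peaks of the windows were covered by H3K9me1 regions to a larger extent in the restricted libraries, although these covered less of the windows. Of the H3K9me3 peak length, 47.3% in restricted A and 28.2% in restricted B lay under H3K9me1 regions of the same time and letter, against 4.59% in control A and 8.43% in control B. The means were 37.8% ± 13.5 in restricted and 6.51% ± 2.71 in control libraries (SD, n = 2 each; exact two-sided permutation p = 0.33). Divided by the share of the windows that H3K9me1 covered in the same library, this was 6.97 in restricted A and 1.85 in restricted B, against 0.240 in control A and 0.386 in control B, so the restricted libraries listed more H3K9me1 over H3K9me3 peaks than over the windows as a whole, and the controls less. By number, 40 of 55 peaks had an H3K9me1 region in restricted A (72.7%, 95% Wilson interval 59.8% to 82.7%) and 13 of 19 in restricted B (68.4%, 46.0% to 84.6%). In control A it was 7 of 33 (21.2%, 10.7% to 37.8%), and in control B 6 of 17 (35.3%, 17.3% to 58.7%).

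The order of the conditions was the same when the H3K9me3 peaks were kept fixed and the H3K9me1 list was changed. The order of the 2 restricted lists was not. The 2 marks of a time and letter share an input library, whereas pairs across letters or times do not. Under the peaks of restricted A, the H3K9me1 lists of restricted A and restricted B covered 47.3% and 26.1% of the length, and those of control A and control B 6.17% and 10.2%. Under the peaks of control A they covered 26.8% and 27.5% with the restricted lists and 4.59% and 5.20% with the control lists. Under the peaks of control B they covered 23.7% and 14.3% with the restricted lists and 3.25% and 8.43% with the control lists. The 14.3% of restricted B was slightly below the 15.3% of the windows that this list covered. For each of the 4 H3K9me3 lists both restricted H3K9me1 lists covered more than both control lists. Outside the windows on the 8 chromosomes the matched values were 35.8% in restricted A and 29.4% in restricted B, against 7.62% in control A and 9.65% in control B, so this was also seen outside the gene-dense windows. This measure was added once the data had been seen.

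**Figure D5:**
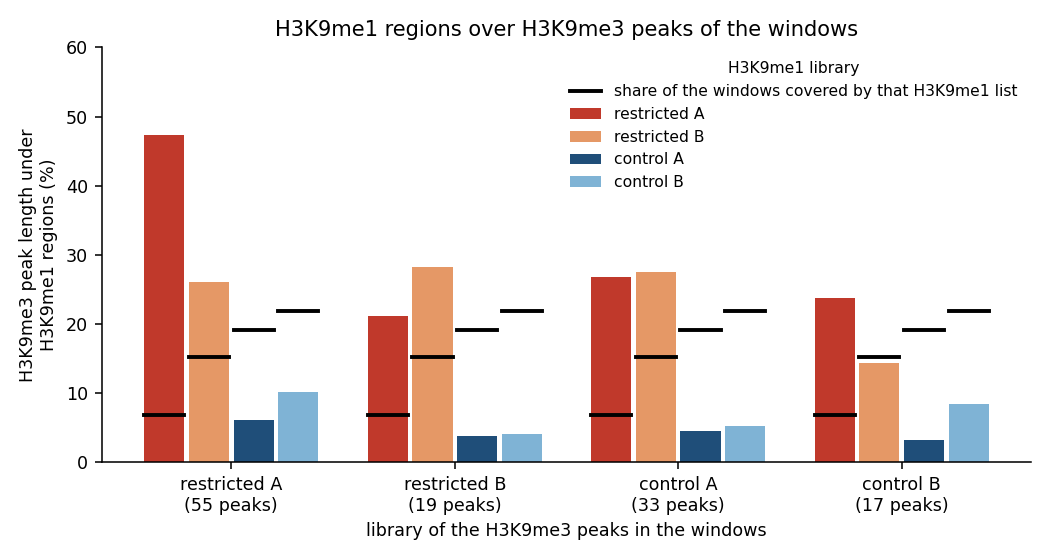
Share of H3K9me3 peak length in the windows that lies under H3K9me1 regions (y axis, %), for the H3K9me3 peaks of each library (x axis, with the number of peaks) and the H3K9me1 list of each library (bar colour). Black lines give the share of all window sequence that the H3K9me1 list covers; the restricted A bars are above their lines, the restricted B bars are above theirs except over the peaks of control B, and the control bars stay below theirs.

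Single loci differed in this respect. Merging the H3K9me3 peaks of the windows gave 63 loci in 1 library, 13 in 2, 6 in 3 and 4 in all 4. Of the 4 loci in all libraries, H3K9me1 covered more of 2 in either restricted library than in either control. At chr17:78887920-78890230 in 17q25 it covered 1477 bp in restricted A and 1656 bp in restricted B, against 264 bp in control A and 505 bp in control B. At chr17:41381583-41382477 in 17q21 it covered 707 bp in restricted A and 719 bp in restricted B, against 434 bp in control A and 0 bp in control B. The others, both in 17q25, went otherwise. At chr17:75133417-75135734 it covered 459 bp in restricted A and 0 bp in restricted B, against 0 bp in control A and 90 bp in control B, and at chr17:75169455-75171571 it covered 0 bp in restricted A and 87 bp in restricted B, and more in both controls, with 117 bp in control B. The locus with the longest span among those in 3 libraries, chr17:5082466-5089456 in 17p13, had 2918 bp in restricted A and 790 bp in restricted B, against 0 bp in each control. These loci were chosen after their values were seen.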

How the data were processed

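ChIP-seq region lists of 4 H3K9me1 and 4 H3K9me3 libraries were used, 2 restricted (24 hr) and 2 control (0 hr) per mark; groups and letters follow the sample titles. Reads were processed with MACS2 2.1.1.20160309, Bowtie2 2.1.0 and SAMtools 1.5 on hg19, per the submitters' processing notes. Broad regions were called library by library, each with the input of its own time and letter as background, per the file headers; H3K9me1 had p cutoffs of 0.0001 (strong) and 0.1 (weak), so that chance regions are admitted. Fold enrichment was deposited as a ratio of reads to local background, and pileup as a signal, namely read coverage. The significance columns were deposited as −log10 of p and of q. All were compared only within a list. Tag counts per library, per the file headers, are given above. How blacklisted or repeated sequence was treated is not given in the sources used here.

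Coverage was computed on the 8 chromosomes that every H3K9me1 list contains. The implied background is the value that pileup and fold, each with 1 read added as in the caller, give for the local background. Bins were tested with limma 3.58.1 (R 4.3.3; eBayes with trend and robust) with a pseudocount of 0.1; single values by exact permutation over 6 relabellings; loci by overlap of at least 1 bp. The interval code was checked, and limma's fit of bins was likewise tested on simulated densities. The simulation drew independent noise with the same spread for every bin and library. It therefore does not cover unequal spread or dependence between neighbouring bins. Windows, bins and loci were named by rule: all windows, called bins up to 10 per direction by adjusted p, the densest and sparsest bin of a window, the 5 widest loci of each class and the most significant region per library; others are marked as chosen later. The windows and tests were chosen with earlier results of these data known. Other pseudocounts, scalings, filters, thresholds, bin sizes and divisors, a replicate block and fits lacking 1 library were tried. Files of the inputs were not used here.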

Additional observations from a re-analysis of the deposited data

How the results depend on the processing

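Over all 9 windows the density difference of -0.381 kept its sign under every divisor, threshold and left-out library tried; it was -0.522 for regions of −log10 p of at least 2 and -0.513 with equal numbers of regions per library, and -0.459 to -0.302 when 1 library was left out. Single windows were less stable at strict thresholds. With −log10 p of at least 2 the difference of means was 0.50 in the proximal 12q13 window, 0.26 at 17q25 and 0.0704 at 16q22. It was -1.348 in the distal 12q13 window and -0.979 at 16p13.3. With at least 1.5 it was 0.0578 at 16p13.3 and -0.239 at 17q25, with overlapping groups in both. Wherever the difference was positive the groups overlapped. At the cutoff of 2, restricted A had 7 regions in the proximal 12q13 window, 12 at 17q25 and 7 at 16q22. It had 2 each in the distal 12q13 window and at 16p13.3. The cause was not tested. Windows lower in both restricted libraries numbered 6 in the main measure and 4 (all listed chromosomes as divisor) to 8 (number of regions) in the others. The 13 window bins called lower became 0 with no filter, a mean density of at least 0.5, no scaling, quantile normalization or −log10 p of at least 1.5, 2 with 2 Mb bins, and 3 to 41 when 1 library was left out; bins called higher were 0, and 0 to 2 with a library left out. Over all bins 0 were called in either direction without a filter, with a mean density of at least 0.5, without scaling and with quantile normalization. With −log10 p of at least 1.5, 1 of 1227 was lower, and with 2 Mb bins 9 of 619 (1.45%). No scaling moved the median over all bins to -0.44 and that of window bins to -0.91. The letter as a replicate block gave 25 window bins lower, beside 88 (7.17%) of all bins. Deviations of same-lettered libraries from their group means had r = -0.11 over all bins and 0.06 over window bins. A correlation over neighbouring bins cannot decide whether the letters pair cultures, and the main fit did not use them as pairs. The crossed pairing also gave 25 in the windows, beside 8.23% of all bins. At most 5.01% of window regions in a library reached −log10 p of 2, and the number of libraries limits every comparison.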
